A study of Mus musculus with 12 samples.

Results

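The genes of the co-activators YAP and TAZ and of their partners, regulators and targets in the Hippo pathway were followed as 10 members, Yap1, Wwtr1, Tead1, Lats2, Amotl2, Ajuba, Ankrd1, Ccn1, Ccn2 and Axl. They were taken by gene name from the 57278 genes of the count table, and all 10 were found once. The cells were 3 DDKC tumor cell lines, DDKC_9750, DDKC_9790 and DDKC_9804, grown from pancreatic tumors of mice that carried Dkk3-/- and Ptf1a Cre/+. In these animals Cre recombinase is expressed from the pancreatic Ptf1a locus, while the Dkk3 knockout is present in the whole body. Treated and untreated cells alike carried both of these alterations. The paper describes the knockout as a replacement of exon 2, which holds the secretion signal. It also names an intracellular product of the locus, DKK3B, with its own transcription start. Each line was left untreated or given rDKK3, recombinant soluble DKK3 protein, and RNA was sequenced in 2 libraries for each line and condition, 12 in all. The comparison asks what DKK3 supplied from outside, as the stroma can supply it, does to tumor cells that carry this knockout. Cells of all groups were grown in medium with fetal bovine serum. The rDKK3 dose and time for these RNA samples and the age of the mice are not given in the sources used here, nor is it stated whether a line is a single clone or came from a separate animal.

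YAP1 and its paralog TAZ, which is encoded by Wwtr1, are the transcriptional co-activators at the end of the Hippo pathway. When the pathway is on, LATS kinases phosphorylate both proteins and hold them out of the nucleus. When it is off, YAP and TAZ bind TEAD transcription factors and switch on target genes for growth, matrix and migration, among them genes that feed back on the pathway. In pancreatic ductal adenocarcinoma (PDAC) YAP is known to promote tumor growth. Because YAP and TAZ are controlled mainly through phosphorylation and location, the mRNA of Yap1 and Wwtr1 does not measure their activity.

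The 6 untreated libraries held 7520741 to 24541083 counts and the 6 treated libraries 3822987 to 11567095, and in DDKC_9750 and DDKC_9804 each treated library was shallower than either untreated one. CPM here is the count scaled to the TMM-normalized library size. A floor of 3 counts lies at 0.123 to 0.751 CPM over the libraries and covers counting error only. The members had between 64 and 27000 counts in every library, so that all 10 were tested. Dkk3 had 1 count in 1 treated library of DDKC_9750 and 0 in the other libraries. The duct keratins Krt8, Krt18 and Krt19 measured from 777 to 3642 CPM in each line and condition, while Epcam was near the floor, at 0.419 to 2.07 CPM. Of 10 fibroblast markers Fap had 0 counts throughout, and Dcn, Lum and Thy1 never had more than 1 count in a library. The summed fibroblast markers lay at 5.99 to 139 CPM, against 4059 to 9887 CPM for the 7 epithelial markers. In bulk RNA, fewer cells of a type and less RNA per cell cannot be told apart.

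Between the 2 libraries of a line and condition the difference was smaller than sampling noise when each gene could shift between the lower-numbered and the higher-numbered libraries (mean Poisson deviance of 0.764 per degree of freedom over 12979 genes, 6.39 without the shift). They were counted as 1 sample, and means and SDs are over n = 3 lines. The largest gap between 2 such libraries was 0.37 on the log2 scale, for Lats2, and the median gap over the members was 0.052.

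The promoters of these genes give a view of the pathway that does not rest on the counts. TEAD factors are known to bind the letters GGAATG, read as CATTCC on the other strand. In the 250 bases before the start of the canonical transcript, 6 of the 9 members searched (all but Ccn2) held at least 1 copy on either strand, against 12.1% of 21757 protein-coding genes (GRCm39 genome, GENCODE M39). Amotl2 held 2 copies, and Yap1, Wwtr1, Tead1, Ccn1 and Axl held 1 each. The letters of an AP-1 element, TGACTCA or TGAGTCA, were in none of the 9 windows and in 4.03% of all. The windows of Lats2, Ajuba and Ankrd1 held neither set of letters. Annotated exons on the same strand covered 176 of the 250 bases in Lats2, 98 in Wwtr1, 36 in Amotl2 and 12 in Ajuba. The windows of Lats2 and Amotl2 lie within the gene bounds of the count table. A match is a description of the sequence and not a measured binding site. The members were chosen as genes and targets of this pathway, so their share beside that of all genes is no test. The windows of Ccn1 (a target gene) and Tead1 (higher with rDKK3 in every line, below) are shown 5′ to 3′ on the strand of the gene, with CATTCC in capitals. They lie at chr3:145355739-145355988 (minus strand) and chr7:112278272-112278521 (plus strand).
Ccn1: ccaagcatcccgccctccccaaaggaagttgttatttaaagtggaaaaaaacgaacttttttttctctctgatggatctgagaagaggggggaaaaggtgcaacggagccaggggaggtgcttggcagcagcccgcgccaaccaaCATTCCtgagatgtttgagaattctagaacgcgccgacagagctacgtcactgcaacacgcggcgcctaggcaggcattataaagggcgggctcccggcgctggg
Tead1: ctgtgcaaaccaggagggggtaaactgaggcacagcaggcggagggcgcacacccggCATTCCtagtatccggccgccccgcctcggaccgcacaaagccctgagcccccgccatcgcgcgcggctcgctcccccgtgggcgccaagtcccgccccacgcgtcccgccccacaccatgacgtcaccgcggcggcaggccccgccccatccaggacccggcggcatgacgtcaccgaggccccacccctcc
The copy began 105 bases before the transcript start in Ccn1 and 193 bases before it in Tead1.

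Levels were compared between genes only after division by exon length. On the scale of CPM per kilobase of exon, averaged over the 6 line and condition samples, the secreted matrix proteins led the group, Ccn2 with 230.2 and Ccn1 with 198. Ankrd1, a target that encodes a muscle ankyrin repeat protein, followed with 102, and the receptor tyrosine kinase gene Axl with 74.4. The co-activators themselves measured 36.6 for Yap1 and 22.04 for Wwtr1, and Tead1, the DNA-binding partner, measured 17.5. The feedback kinase gene Lats2 was lowest with 2.03. Its samples, at 1.48 to 2.87 CPM per kilobase, lay below all samples of Tead1, at 11.4 to 25.8. The ranges of all other neighbours in this order overlapped, so by range only the place of Lats2 was separated from the next gene. Compared within each sample, Ccn1 also lay above Ankrd1 every time, while the other overlapping neighbours changed order in at least 1 sample. The lengths are those of GENCODE M39 basic transcripts, not of the M32 release on which the reads were counted.

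**Figure D1:**
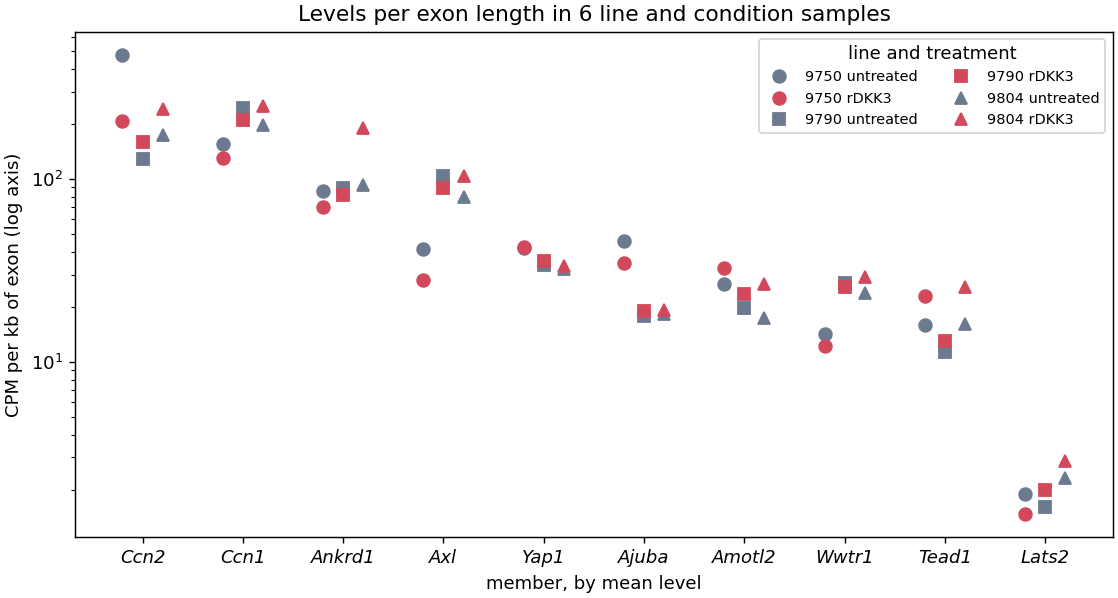
Level of each member in CPM per kilobase of exon (log axis), with 1 point for each of the 6 line and condition samples (marker shape, line; grey, untreated; red, rDKK3). Ccn2 spans 128 to 475 over the samples, and Lats2, at 1.48 to 2.87, lies below every other member.

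Over the 3 lines together, no member passed the test of rDKK3 against untreated cells, and the lines differed in direction for most of them. Counts were tested with the quasi-likelihood test of edgeR after summing over the 2 libraries, with the line as the block and Benjamini-Hochberg adjustment over 16277 genes. It called 1 gene in all, which is 0.00614% of those tested. At an unadjusted p under 0.05 there were 1333 genes (8.19%) in the same test, 3.11% of the genes tested being higher and 5.07% lower, and 2 of the 10 members, Tead1 and Amotl2, both higher. DESeq2 on the same summed counts called 98 genes and 0 members. The median log2 fold change over the 10 members was 0.012, beside -0.010 over all genes tested. Taking the 12 libraries as separate replicates, edgeR called 18.6% of the genes tested, 8.59% higher and 9.99% lower, and among the members Tead1 and Amotl2. With a term for lower- and higher-numbered libraries it called 20.7%, 9.16% higher and 11.5% lower, with Tead1 and Amotl2 again. Both fits treat the repeated libraries as independent, so their p-values are too small for a statement about lines.

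**Figure D2:**
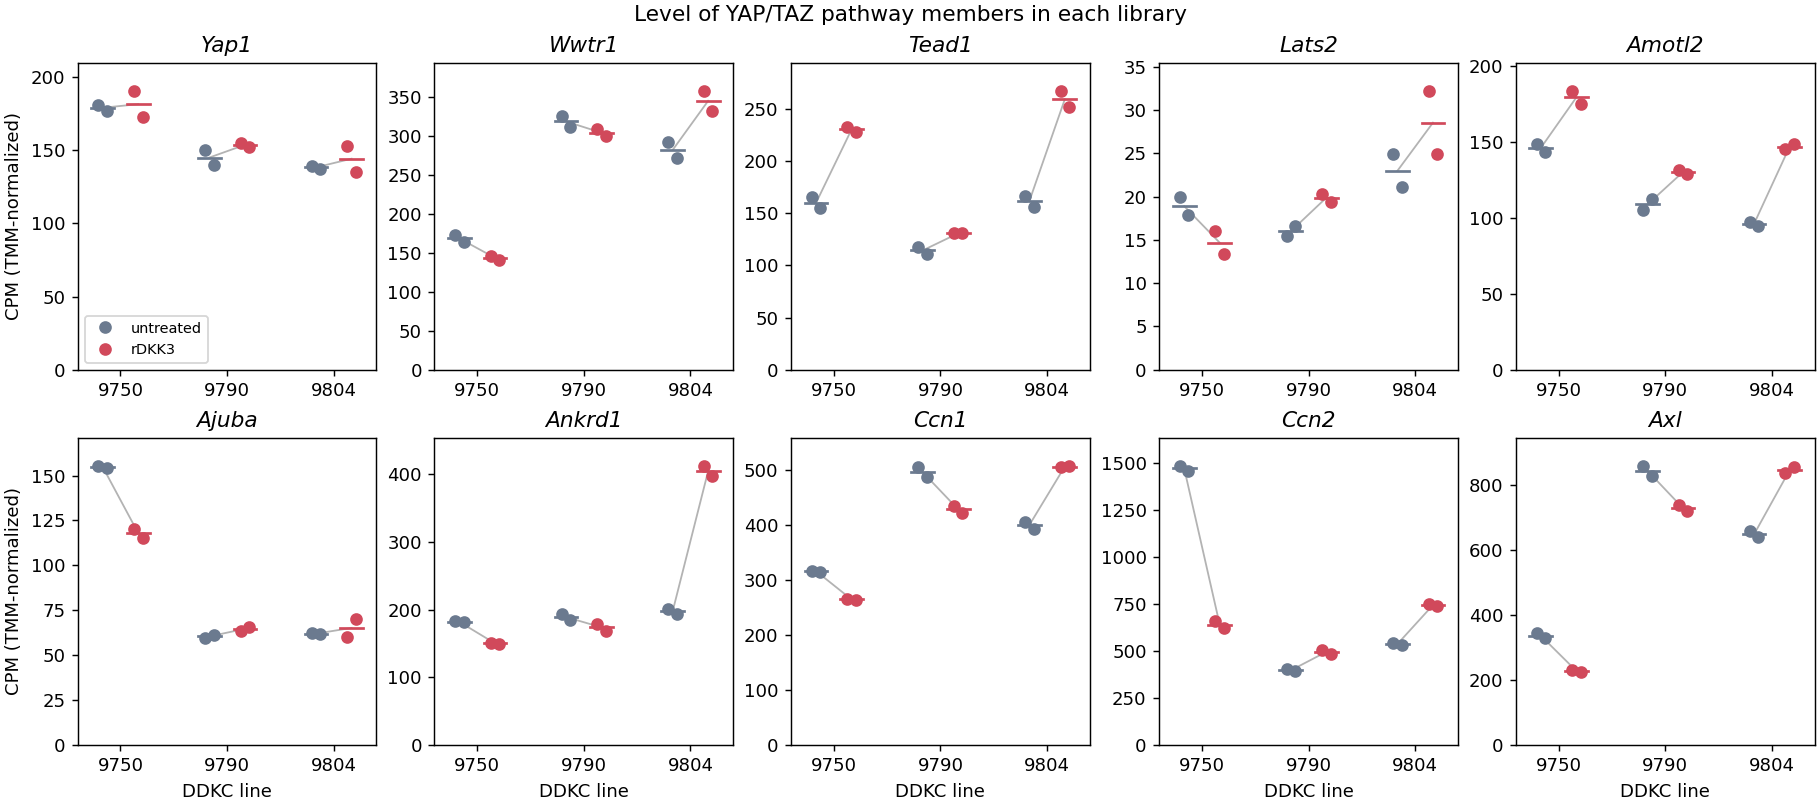
CPM of the 10 members in each of the 12 libraries (points; grey, untreated; red, rDKK3) by DDKC line, with a bar at the mean of the 2 libraries and a line joining the conditions. Tead1 and Amotl2 lie higher with rDKK3 in all 3 lines, while Ccn2 is at 1458 and 1484 CPM in untreated DDKC_9750 and at 621 and 658 CPM in the treated cells of that line.

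Yap1 (ENSMUSG00000053110.14, chr9:7932000-8004597, minus strand) had log2 differences between 0.018 and 0.085 in the 3 lines. Gene identifiers and positions are those of the count table, on GRCm39. In DDKC_9750 it measured 181 and 177 CPM without and 191 and 173 CPM with rDKK3. In DDKC_9790 the values were 150.2 and 140 without and 155 and 152 with it, and in DDKC_9804 they were 140 and 137 without and 153 and 135 with it. The treated and untreated libraries overlapped in DDKC_9750 and DDKC_9804, and in DDKC_9790 both treated libraries lay just above. Over the lines Yap1 measured 154 ± 21.8 CPM (SD, n = 3) untreated and 160 ± 19.4 CPM (SD, n = 3) treated, with a log2 fold change of 0.036 (SE 0.11, adjusted p = 0.937 in edgeR's test).

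Its paralog Wwtr1 (ENSMUSG00000027803.15, chr3:57363070-57483331, minus strand) was lower in DDKC_9750 than in the other 2 lines, and was higher with rDKK3 only in DDKC_9804. DDKC_9750 had 173 and 164 CPM untreated and 147 and 141 CPM treated, so both treated libraries were lower. DDKC_9790 had 326 and 312 CPM untreated and 310 and 299.9 CPM treated, again lower but by 0.067 on the log2 scale. DDKC_9804 had 293 and 272 CPM untreated and 358 and 333 CPM treated, which is 0.29 higher. Over the lines the log2 fold change was -0.011 (SE 0.14, adjusted p = 0.987 in edgeR's test).

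Tead1 (ENSMUSG00000055320.19, chr7:112278525-112506014, plus strand), which encodes a TEAD factor, was higher with rDKK3 in every line. It measured 165 and 154 CPM without and 232 and 228 CPM with rDKK3 in DDKC_9750. In DDKC_9790 it measured 118 and 111 CPM without and 130.5 and 131 CPM with it, and in DDKC_9804 166 and 156 CPM without and 267 and 251 CPM with it. Within each line both treated libraries stood above both untreated ones, although the ranges of the 2 conditions overlapped across lines, with DDKC_9790 the lowest in both. Its log2 fold change was 0.46 (SE 0.13, adjusted p = 0.603 in edgeR's test), the highest of the 10 members, and the differences in DDKC_9750, DDKC_9790 and DDKC_9804 were 0.53, 0.19 and 0.68.

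Amotl2 (ENSMUSG00000032531.16, chr9:102593871-102610617, plus strand) had the same direction. It encodes an angiomotin family protein that binds YAP at junctions and is itself a YAP target. DDKC_9750 measured 149 and 144 CPM untreated and 184 and 175 CPM treated. DDKC_9790 measured 105 and 113 CPM untreated and 132 and 129 CPM treated, and DDKC_9804 97.6 and 94.9 CPM untreated and 145 and 149 CPM treated. The treated libraries of each line were again above the untreated ones, and the log2 fold change was 0.37 (SE 0.12, adjusted p = 0.603 in edgeR's test). Treated libraries stood above untreated ones in all 3 lines for 5.57% of all genes tested, and below them in all 3 lines for 7.45%, together 13%. Among the members this held for 2 of 10 above and 0 below.

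The other feedback and scaffold genes did not share that pattern. Lats2 (ENSMUSG00000021959.17, chr14:57927119-57995845, minus strand), the kinase that phosphorylates YAP and TAZ, was the member with the fewest counts. It was 0.37 lower on the log2 scale with rDKK3 in DDKC_9750, 0.31 higher in DDKC_9790 and 0.30 higher in DDKC_9804. Its mean was 19.3 ± 3.51 CPM (SD, n = 3) untreated and 21.0 ± 7.01 CPM (SD, n = 3) treated. Ajuba (ENSMUSG00000022178.12, chr14:54804929-54815015, minus strand), a LIM protein that restrains LATS kinases, measured 155 and 154 CPM in untreated and 120.4 and 115 CPM in treated cells of DDKC_9750. The other 2 lines lay between 59.7 and 69.9 CPM in all 8 libraries. Both treated libraries of DDKC_9790 were above the untreated ones, by 0.098 on the log2 scale, and those of DDKC_9804 overlapped. Over the lines neither gene passed, with an adjusted p of 0.935 for Lats2 and 0.886 for Ajuba in edgeR's test.

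Of the 10 members, Ccn2 (ENSMUSG00000019997.12, chr10:24471340-24474581, plus strand), which encodes connective tissue growth factor, differed most between conditions within 1 line. In DDKC_9750 it measured 1484 and 1458 CPM untreated and 658 and 621 CPM treated, a log2 difference of -1.20. In DDKC_9790 it measured 401 and 391 CPM untreated and 507 and 482 CPM treated, and in DDKC_9804 543 and 529 CPM untreated and 749 and 739 CPM treated. The log2 differences in these 2 lines were 0.32 and 0.47. The untreated lines spread over 801 ± 585 CPM (SD, n = 3), and the treated lines over 626 ± 125 CPM (SD, n = 3). The fitted log2 fold change of -0.14 (SE 0.35) did not pass (adjusted p = 0.923 in edgeR's test), and without DDKC_9750 it was 0.39 (adjusted p = 0.411).

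Ccn1 (ENSMUSG00000028195.5, chr3:145352731-145355736, minus strand), which encodes the related matricellular protein CYR61, did not follow Ccn2 in DDKC_9790. It measured 316 and 315 CPM untreated and 264 and 264 CPM treated in DDKC_9750, and 505 and 487 CPM untreated and 433 and 422 CPM treated in DDKC_9790. In DDKC_9804 the order was the opposite, with 406 and 393 CPM untreated and 505 and 507 CPM treated. Both treated libraries were thus lower in 2 lines and higher in 1, and the log2 fold change was -0.053 (SE 0.15, adjusted p = 0.932 in edgeR's test).

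Ankrd1 (ENSMUSG00000024803.10, chr19:36089361-36097499, minus strand) had the largest positive log2 difference of any member in a single line. Untreated, the 3 lines were close together, at 189 ± 7.76 CPM (SD, n = 3). In DDKC_9804 the untreated libraries had 201 and 193 CPM and the treated ones 413 and 397 CPM, a log2 difference of 1.04. DDKC_9750 had 183 and 181 CPM untreated and 151 and 149 CPM treated, and DDKC_9790 193 and 185 CPM untreated and 179 and 168 CPM treated. The log2 fold change over the lines was 0.20 (SE 0.26, adjusted p = 0.854 in edgeR's test), and without DDKC_9804 it was -0.19 (adjusted p = 0.782).

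Axl (ENSMUSG00000002602.17, chr7:25456698-25488130, minus strand), the receptor of the ligand GAS6, had the same signs as Ankrd1 and Ccn1 in the 3 lines. It measured 343 and 328 CPM untreated and 230.1 and 224 CPM treated in DDKC_9750, and 858 and 828 CPM untreated and 737 and 719 CPM treated in DDKC_9790. In DDKC_9804 it measured 657 and 639 CPM untreated and 836 and 854 CPM treated. The treated libraries were therefore lower in DDKC_9750 and DDKC_9790 and higher in DDKC_9804. The log2 fold change over the lines was -0.14 (SE 0.19, adjusted p = 0.859 in edgeR's test).

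**Figure D3:**
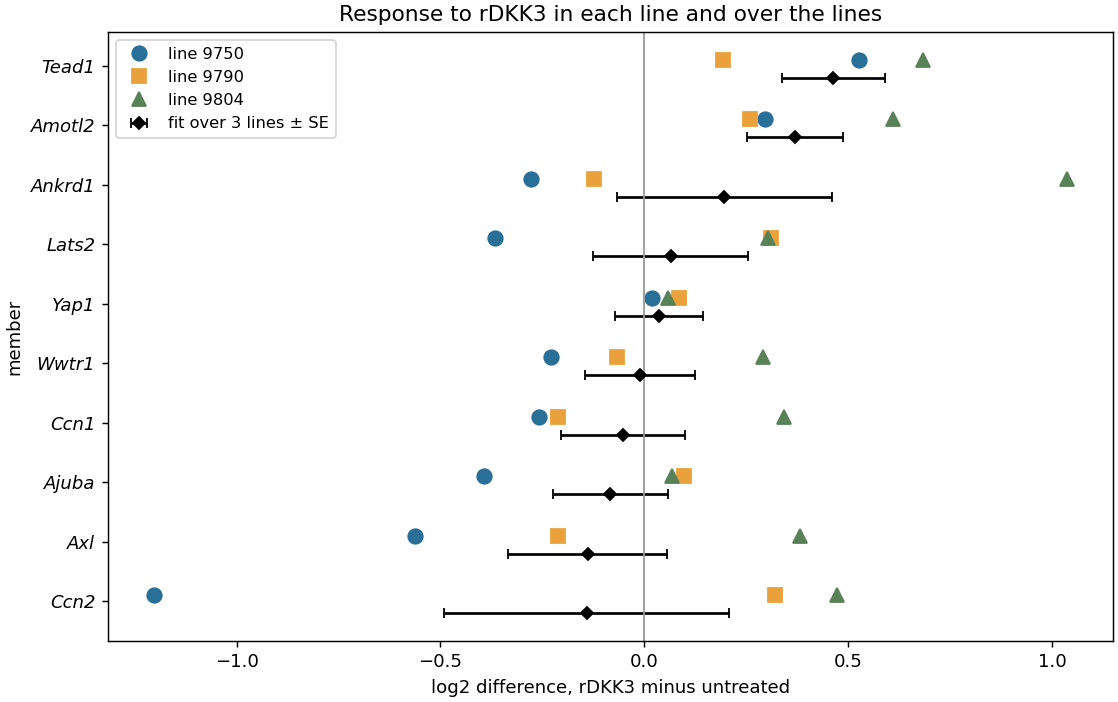
Log2 difference between rDKK3-treated and untreated cells for each member in DDKC_9750 (circles), DDKC_9790 (squares) and DDKC_9804 (triangles), and the log2 fold change of the fit over the 3 lines with its standard error (diamonds with bars). DDKC_9804 lies right of 0 for all 10 members, and DDKC_9750 reaches -1.20 for Ccn2.

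Read by line, the 10 members divided as follows. In DDKC_9804 all 10 had a positive log2 difference, as had 8162 of the 16277 genes tested, with a median of 0.36 beside 0.0011. Of the 15 other YAP/TAZ targets described below, 7 were higher in DDKC_9804, with a median of -0.046. Both treated libraries were above both untreated ones for 8 members, with Yap1 and Ajuba overlapping, which 35.7% of all genes showed in that line. In DDKC_9750 both treated libraries were below for 7 members, above for Tead1 and Amotl2 (32.2% of all genes), and overlapping for Yap1. The median there was -0.27, beside -0.013 over all genes, of which 34% lay below. In DDKC_9790 the split was 6 above (28.2% of all genes) and 4 below (31.4% of all genes), with a median of 0.091. For 7 of the 10 members the treated libraries stood above in at least 1 line and below in another, against 36.9% of all genes tested. As each line and condition is 1 sample, a dependence of the response on the line leaves no residual degrees of freedom among samples and was not tested.

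Other measures moved with the condition in these lines. The summed fibroblast markers went from 51.0 to 139 CPM in DDKC_9750, from 9.02 to 11.9 in DDKC_9790 and from 6.86 to 5.99 in DDKC_9804. Most of the first difference was Acta2, the smooth muscle actin gene, at 37.9 CPM untreated and 127 CPM treated. Pdpn, the podoplanin gene, went the same way, from 0.248 to 4.29 CPM. Col1a1 and Pdgfra went the other way in DDKC_9750, with log2 differences of -0.83 and -1.21. Pdgfrb and Col1a2 never had more than 4 counts in a library of DDKC_9750. Fap, Lum and Thy1 had 0 counts in that line and Dcn had 0.078 CPM treated. The sum of DDKC_9804 held opposite differences. Pdgfra went from 0.890 to 4.45 CPM there, while Pdgfrb went from 4.10 to 0.527 CPM and Col1a1 from 1.55 to 1.01 CPM. The 7 epithelial markers summed to 5643 CPM untreated and 4059 CPM treated in DDKC_9750, 9887 and 8058 in DDKC_9790, and 5157 and 4275 in DDKC_9804. The keratins Krt7, Krt8, Krt18 and Krt19 were lower with rDKK3 in every line, whereas Sox9, a duct transcription factor, had log2 differences of 0.43, 0.17 and 0.44 and Cdh1, the E-cadherin gene, of 0.41, -0.13 and 0.24 in DDKC_9750, DDKC_9790 and DDKC_9804. None of these epithelial genes passed the treatment test in edgeR, while DESeq2 called Krt19 (adjusted p = 0.0089) and none of the others. The 4 immune markers reached at most 39.8 CPM in a library, with Adgre1 and Cd3e at 0 counts. Nearly all of it was Cd68, which measured 2.03, 23.6 and 2.64 CPM untreated and 2.90, 38.5 and 6.92 CPM treated in the same order of lines (adjusted p = 0.603 in edgeR's test). The 3 endothelial markers reached at most 21.0 CPM, mostly Kdr, at 7.82 CPM untreated and 18.2 CPM treated in DDKC_9804 and lower with rDKK3 in the other 2 lines. The 4 acinar markers reached at most 12.4 CPM, all of it Cela1. The part of these measures, and of the shallower treated libraries, in the values of the members was not tested.

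The lines were also compared with each other, with treatment as a term. In the test over the 3 lines in the same fit, with 2 conditions as the samples of a line, 33.7% of all genes tested passed, and 4 of the 10 members did, Wwtr1, Tead1, Ajuba and Axl. This share is near that of all genes, and so was the size of the differences. The largest log2 difference between any 2 lines had a median of 0.78 over the members and 0.79 over all genes tested. Since a line is represented by its own 2 samples, the test compares these cultures.

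DDKC_9750 stood apart from the other 2 lines in 3 of these genes. The pairwise contrasts called 25.5% of all genes for DDKC_9790 against DDKC_9750, 17.7% for DDKC_9804 against DDKC_9750 and 20.6% for DDKC_9804 against DDKC_9790. Axl was higher by 1.46 on the log2 scale in DDKC_9790 and by 1.43 in DDKC_9804 (SE 0.24 for both, adjusted p = 0.0145 and 0.0175 in edgeR's test). Wwtr1 was higher by 0.97 in DDKC_9790 and by 1.00 in DDKC_9804 than in DDKC_9750 (SE 0.17 for both, adjusted p = 0.0158 and 0.0171). Ajuba was the reverse, with log2 differences of -1.14 and -1.08 against DDKC_9750 (adjusted p = 0.0126 and 0.0156 in edgeR's test). No call was made for the 3 between DDKC_9804 and DDKC_9790, where the log2 differences were -0.033 for Axl, 0.027 for Wwtr1 and 0.052 for Ajuba with SEs of 0.24, 0.17 and 0.17. Without DDKC_9750 these 3 genes no longer passed the line test (adjusted p of 0.899 for Wwtr1, 0.759 for Ajuba and 0.892 for Axl), and without DDKC_9790 they also missed it (0.0689, 0.0516 and 0.0591). In the latter case the log2 differences between DDKC_9804 and DDKC_9750 stayed at 0.99 for Wwtr1, -1.08 for Ajuba and 1.42 for Axl.

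For Tead1 it was DDKC_9790 that was low, by 0.67 against DDKC_9750 and 0.76 against DDKC_9804. The adjusted p was 0.0327 for the first and 0.0275 for the second in edgeR's test. The call rested on that line, since without it the adjusted p was 0.831. Yap1, Lats2, Amotl2, Ankrd1, Ccn1 and Ccn2 did not pass the line test, with adjusted p from 0.0675 for Ccn1 to 0.159 for Lats2. DESeq2 called 6 members in its line test, the same 4 and also Ccn1 (adjusted p = 0.0186) and Ccn2 (adjusted p = 0.0379). That test called 6327 genes in all, of 16277 entered. In edgeR Ccn2 passed without DDKC_9750 (adjusted p = 0.0326), and Ccn1 passed without DDKC_9804 (adjusted p = 0.0317).

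Over the 6 line and condition samples, which share their lines, the protein-coding genes most like Yap1 in mean log2 CPM were Arhgap29, Fam53c and Cxxc1, with Pearson's r of 0.994, 0.993 and 0.991. For Ccn2 the most alike were Noa1, Nubp1 and Zfp874b, with r of 0.982, 0.978 and 0.977. Of these 6 points each line gave 2, and 519 of the 12723 genes compared exceeded 0.9 for Yap1 and 68 did for Ccn2.

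The other genes of the pathway were followed through 2 written lists. The first holds 26 Hippo pathway genes, the upstream kinases, scaffolds, junction proteins and remaining TEAD factors. Of these 24 were tested, Fat4 and Dchs1 being too low. None passed the treatment test in edgeR, 1 was higher at an unadjusted p under 0.05 (3.11% of all genes were), and DESeq2 called 0 of them. Of the 24, 9 were higher with rDKK3 in DDKC_9750, 15 in DDKC_9790 and 15 in DDKC_9804, where 7750, 7632 and 8162 of the 16277 genes tested were, and the median log2 fold change was 0.040, beside -0.010 over all genes tested. With the 12 libraries as separate replicates 5 were called higher (8.59% of all genes were) and 2 lower (9.99% of all genes were).

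Among the Hippo genes with the same sign in every line, Tead3, another TEAD factor, had the largest positive value. It measured 29.0, 21.4 and 27.7 CPM untreated and 34.0, 26.1 and 42.0 CPM treated in DDKC_9750, DDKC_9790 and DDKC_9804, a log2 fold change of 0.35 (SE 0.13, adjusted p = 0.603 in edgeR's test). Map4k4, a kinase that can act on LATS, had 0.24 and Nf2, which encodes the scaffold merlin, had 0.20, with SEs of 0.14 and 0.12. The most negative were Crb3, a polarity protein of the apical membrane, with -0.91 (SE 0.45), Vgll4, a competitor of YAP for TEAD, with -0.29 (SE 0.17), and Sav1, the scaffold of the MST kinases, with -0.24 (SE 0.12). None of these passed, with adjusted p from 0.603 to 0.687. For Map4k4 the log2 difference was only 0.0014 in DDKC_9750, where treated and untreated libraries overlapped, and 0.18 and 0.57 in DDKC_9790 and DDKC_9804. The libraries of Crb3 and Vgll4 overlapped in DDKC_9790, at -0.14 and -0.027. Crb3 was low in DDKC_9804, with 40 and 73 counts untreated and 4 and 2 counts treated.

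Between the lines, 11 of the 24 Hippo genes passed (33.7% of all genes did). Amot, the founding angiomotin, measured 79.7 CPM in untreated DDKC_9750, 18.9 CPM in DDKC_9790 and 40.03 CPM in DDKC_9804 (adjusted p = 0.00661 in edgeR's test). Wwc1, which encodes the LATS activator KIBRA, measured 285, 198 and 100.4 CPM in the same order (adjusted p = 0.0117). It was 504 CPM in treated DDKC_9750, a log2 difference of 0.82. Amotl1 was highest in DDKC_9804, at 322 CPM untreated, against 175 in DDKC_9750 and 142 in DDKC_9790 (adjusted p = 0.0128).

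The second list holds 15 further genes of a widely used YAP/TAZ target signature. All 15 were tested and none passed the treatment test in edgeR. At an unadjusted p under 0.05 there was 1, F3, which was lower (5.07% of all genes were). DESeq2 called 1, also F3, of 98 genes called in all. The median log2 fold change was 0.041. Of the 15, 6 were higher with rDKK3 in DDKC_9750, 7 in DDKC_9790 and 7 in DDKC_9804. The median log2 differences in these lines were -0.10, -0.026 and -0.046. F3, which encodes tissue factor, the starter of blood clotting, was lower with rDKK3 in every line. It measured 67.1 CPM untreated and 30.7 CPM treated in DDKC_9750, 42.7 and 22.1 CPM in DDKC_9790, and 101 and 57.4 CPM in DDKC_9804. The log2 fold change was -0.97 (SE 0.12, adjusted p = 0.603 in edgeR's test and 3.8e-05 in DESeq2). With the 12 libraries as separate replicates F3 was the only one of the 15 called, while 18.6% of all genes were, 9.99% of them lower.

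The other genes of this list with the same sign in all lines were Ccdc80 with -0.74 (SE 0.50) and Fjx1 with -0.27 (SE 0.18). Treated and untreated libraries overlapped in DDKC_9750 for Ccdc80, and in DDKC_9790 and DDKC_9804 for Fjx1. Both were at few counts in some lines, Ccdc80 with 0 and 1 count in the treated libraries of DDKC_9804 and Fjx1 with 4 to 9 counts in the libraries of DDKC_9790. In the line test 9 of the 15 passed (33.7% of all genes did). Fjx1, a kinase of the Golgi acting on the FAT and DCHS cadherins, measured 49.0 CPM in untreated DDKC_9750 against 0.567 CPM in DDKC_9790 and 3.05 CPM in DDKC_9804 (adjusted p = 0.000852 in edgeR's test). F3 and Gadd45a, a stress response gene, also led that test. Gadd45a measured 104 CPM in DDKC_9750, 310.2 CPM in DDKC_9790 and 602 CPM in DDKC_9804, all untreated.

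A pair of targets, named after their values were seen, differed far more in DDKC_9750 than any member. Igfbp3, which encodes an insulin-like growth factor binding protein, measured 382 CPM untreated and 22.02 CPM treated there, a log2 difference of -4.11. In DDKC_9790 and DDKC_9804 it measured 292 and 439 CPM untreated and 377 and 624 CPM treated. Tgfb2, which encodes transforming growth factor beta 2, measured 3.27 CPM untreated and 31.3 CPM treated in DDKC_9750, a log2 difference of 3.19, and under 2 CPM in both conditions of the other lines. Over the lines the adjusted p was 0.843 for Igfbp3 and 0.799 for Tgfb2 in edgeR's test.

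**Figure D4:**
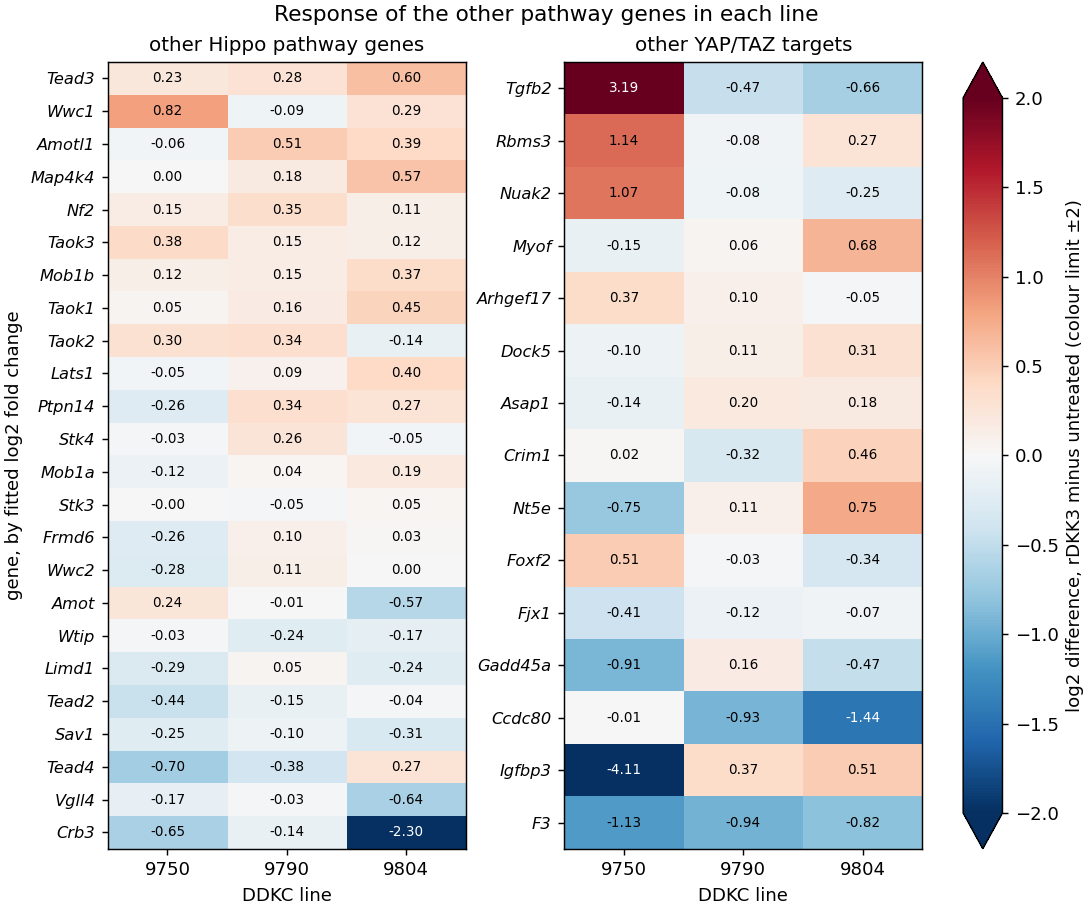
Log2 difference between rDKK3-treated and untreated cells in each DDKC line for the 24 other Hippo pathway genes tested (left) and the 15 other YAP/TAZ targets (right), ordered by the fitted log2 fold change, with the value in each cell and colours limited at ±2. F3 is negative in all 3 lines, and the extremes, -4.11 for Igfbp3 and 3.19 for Tgfb2, are in DDKC_9750.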

How the data were processed

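Total RNA of cultured DDKC cells was sequenced as 50-base read pairs with a strand-marking kit. The authors aligned the reads to GRCm39 with STAR 2.7.9a, counted them on exons of GENCODE M32 genes by strand and deposited raw counts per gene without normalization. Every value column of the table was matched to a library by its title. Counts of the 2 libraries of a line and condition were summed, because nothing in the labels says that they came from separate cultures. The treatment p-values therefore set the fold change against the disagreement among 3 lines in their response, combined with variance borrowed from other genes. The quasi-likelihood fit draws each gene's variance toward a trend over all genes, so a p-value or SE does not measure that gene's disagreement alone. The line p-values set the differences between lines against that same moderated variance. Treatment and line were tested in 1 fit (edgeR 4.0.16 in R 4.3.3, TMM, filterByExpr with the line as the group, 2 residual degrees of freedom, Benjamini-Hochberg threshold 0.05). The lines pair the samples by their labels, and deviations from the condition means correlated at 0.798 to 0.865 within a line. Standard errors came from the log2 fold change and F. Differences within a line are of mean log2 CPM with a prior count of 2. Alternatives were DESeq2 1.42.0, other units of replication, scalings and filters, and leaving out each line. The fits were tested on simulated data. Named were all members, in each list those with the largest rise or fall of 1 sign in all lines and the 3 smallest p of the line test, and Dkk3. The members and lists were chosen with earlier results of these data known. An allele of the mouse model and a promoter window are not reported here.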

Additional observations from a re-analysis of the deposited data

Results flagged for a closer look

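For 7 members both rDKK3-treated libraries stood above both untreated ones in 1 line and below them in another. The difference between lines was not tested, because each line and condition is 1 sample. The log2 differences between rDKK3 and untreated cells were -0.23 in DDKC_9750, -0.067 in DDKC_9790 and 0.29 in DDKC_9804 for Wwtr1, and -0.37, 0.31 and 0.30 in the same order for Lats2. They were -0.28, -0.12 and 1.04 for Ankrd1, -0.26, -0.21 and 0.34 for Ccn1, -1.20, 0.32 and 0.47 for Ccn2, and -0.56, -0.21 and 0.38 for Axl. For Ajuba they were -0.39 in DDKC_9750 and 0.098 in DDKC_9790, with overlapping libraries in DDKC_9804. DDKC_9750 was the negative side in all 7, and 36.9% of all genes tested showed opposite directions of this kind in some pair of lines. No group held enough samples to look for single outlying ones.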

How the results depend on the processing

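With the 12 libraries as separate replicates, 2658 of 14308 genes tested passed the treatment test and 11220 the line test, with 2 and 10 members among them. With a term for lower- and higher-numbered libraries the numbers were 2958, 11627, 2 and 10, again of 14308 genes tested. Those fits count repeated libraries as independent samples. DESeq2 called 98 genes for treatment, and without the filter on low counts edgeR called 90. Without that filter the line test called 7 members and 6781 of the 29823 genes tested. With no replicate block the treatment test called 0 genes (106 at an unadjusted p under 0.05) and 0 members. Leaving out each line, with 15518 to 15685 genes tested, gave 0 to 2 genes and 0 members for treatment. For the line test it gave 1502 to 5173 genes and 0 to 5 members, the lowest of both without DDKC_9790. The median log2 fold change of the members was -0.024 without the filter and -0.13 to 0.20 without each line, -0.13 being without DDKC_9804. No other alternative moved a count of calls by more than 1.5 times. Of single members, Wwtr1, at -0.011, turned to 0.00087 and 0.0015 in the 2 fits of 12 libraries, 0.0029 with DESeq2, 0.0026 with RLE scaling, 0.028 with library totals and 0.033 with no replicate block, and Yap1 to -0.0011 without the filter. Leaving out each line turned the sign of 7 members, whose log2 fold changes then ran from -0.13 to 0.11 for Wwtr1, -0.040 to 0.29 for Lats2, -0.16 to 0.087 for Ajuba, -0.19 to 0.45 for Ankrd1, -0.22 to 0.060 for Ccn1, -0.43 to 0.39 for Ccn2 and -0.37 to 0.082 for Axl. Wwtr1, Ajuba, Ccn1, Ccn2 and Axl turned without DDKC_9750, Wwtr1, Lats2 and Ccn1 without DDKC_9790, and Lats2 and Ankrd1 without DDKC_9804. Tead1 stayed between 0.39 and 0.60 and Amotl2 between 0.28 and 0.45 in every alternative run. The cause of these changes was not tested. Depth limits Crb3, Ccdc80 and Fjx1, which were at few counts in some lines.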
